A study of Homo sapiens with 8 samples.

Results

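Binding of the stress granule protein G3BP1 was described on the transcripts of 6 splicing factor genes: SNRPB, SNRNP200, PRPF8, SF3B1, SRRM2 and HNRNPU. Members were the G3BP1 peaks that lay inside a fixed genomic window around each gene (build hg19) on the strand of that gene. They numbered 37 of the 2925 peaks from PDS-treated cells and 15 of the 1421 peaks from untreated (Ctrl) cells. Of the 6 genes, 5 held a peak in at least 1 list, and SF3B1 held none in either.

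The peaks came from seCLIP, in which proteins are crosslinked to RNA, G3BP1 is immunoprecipitated (IP) and the bound fragments are sequenced beside an input library made without the antibody. The cells were HEK293T, an established human embryonic kidney line, and every library came from that line with no genetic change named. The 8 libraries formed 4 groups of 2: IP and input after 20 µM PDS for 12 h before UVA crosslinking, and IP and input without treatment. PDS is not spelled out in the labels; in studies of guanine quadruplexes, four-stranded structures of G-rich RNA or DNA, the letters usually stand for pyridostatin, a ligand that stabilises them.

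Splicing removes introns from pre-mRNA and is carried out by the spliceosome, a machine of small nuclear ribonucleoproteins (snRNPs) and many further proteins. SNRPB encodes the SmB and SmB' proteins of the Sm ring that encircles the spliceosomal small nuclear RNAs. PRPF8 is the large scaffold protein of the U5 snRNP at the catalytic centre, SNRNP200 is the helicase that unwinds the U4 and U6 RNAs, and SF3B1 is the U2 snRNP subunit that contacts the branch site region. SRRM2 is a large serine- and arginine-rich protein of nuclear speckles that associates with the spliceosome. HNRNPU is an abundant nuclear RNA- and chromatin-binding protein with effects on splicing, and is not a snRNP subunit. G3BP1 is mainly cytoplasmic. The peaks lie on the strand of the genes that encode these proteins, and whether they fall on mature mRNA, introns or a hosted small RNA was not analysed here.

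Each list gives 1 value of enrichment and 1 of significance per peak for both replicates together, as the authors deposited them. The enrichment was read as the log2 fold of IP over input and the significance as −log10 p. Neither values per replicate nor library sizes were used here, so a difference between PDS and Ctrl carries no replicate test and no SD, and the depth behind a peak is not known from the lists. The genes were chosen by their peak counts and log2 fold in these lists, the SNRPB peak of the PDS list first among them, so all values are descriptions. Each window was divided into a 5′, a middle and a 3′ part of equal length. A missing peak says only that no stretch passed the limits of that list, since the lists hold only peaks with a log2 fold over 3. The log2 fold is relative to input, and levels of the mRNAs themselves were not analysed here.

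Over all 6 genes, the PDS list held 37 peaks and the Ctrl list 15, a ratio of 2.47, beside 2.05 for the rest of the lists (2888 and 1406 peaks). After peaks within 50 nt were merged, 26 PDS and 13 Ctrl regions remained, a ratio of 2.0, beside 1.73 for the rest. The members covered 1678 nt in the PDS list and 916 nt in the Ctrl list, a ratio of 1.83, beside 1.74 for the rest. With the PDS list shortened to its 1421 most enriched peaks, the length of the Ctrl list, 18 PDS peaks stayed and the ratio was 1.20, beside 0.998 for the rest, a value near 1 because the lists then have equal lengths.

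The genes differed widely in this ratio. SNRNP200 had 14 PDS and 2 Ctrl peaks, a ratio of 7.0, PRPF8 had 7 and 5, a ratio of 1.40, and SRRM2 had 10 and 8, a ratio of 1.25. SNRPB and HNRNPU each had 3 PDS peaks and 0 Ctrl peaks. Without SRRM2 the joint ratio was 3.86, with 27 PDS and 7 Ctrl peaks, and without SNRNP200 it was 1.77, with 23 and 13. The map of peaks along the windows shows these counts and where the peaks lay.

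**Figure D1:**
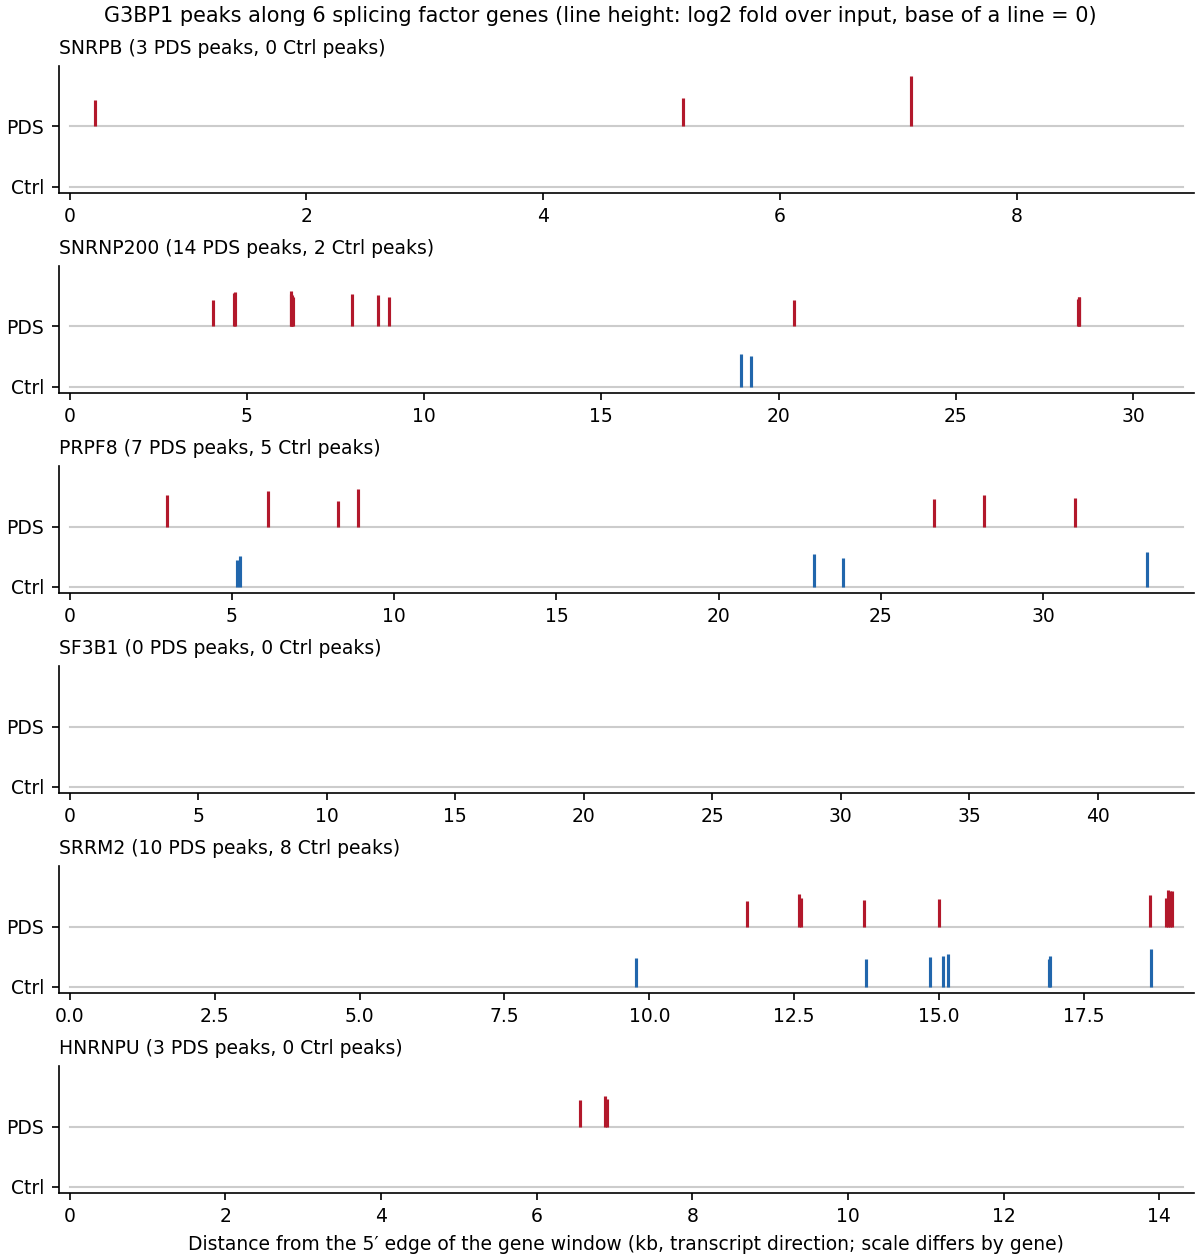
Peaks along the windows of the 6 genes. The x axis is the distance from the 5′ edge of the window in kb in the direction of transcription, each line is 1 peak with its height showing log2 fold over input from 0, and the PDS list (red) stands above the Ctrl list (blue). SNRPB and HNRNPU carry 3 PDS peaks and 0 Ctrl peaks each, SF3B1 carries none, and 10 of the 14 PDS peaks of SNRNP200 lie in the 5′ part of its window.

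SNRPB carried the strongest peak of the set. Its window spans 2442200 to 2451600 of chromosome 20, minus strand. In the PDS list, the peak at 2444451 to 2444542 (92 nt) had a log2 fold of 5.92, rank 3 of all 2925 PDS peaks, and a −log10 p of 62.7. It lay 7058 nt from the 5′ edge of the window, at 75.6% of its length.

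The other two SNRPB peaks of the PDS list were weak by comparison. The peak at 2446391 to 2446441 (51 nt) had a log2 fold of 3.30 and a −log10 p of 20.2. The peak at 2451334 to 2451438 (105 nt), which began 162 nt inside the 5′ edge of the window, had a log2 fold of 3.12 and a −log10 p of 17.9. By log2 fold they ranked at percentiles 27.5 and 11.8 of the PDS list, whereas by −log10 p they sat near the middle, at percentiles 57.7 and 50.1. The Ctrl list held 0 peaks in this window, and its nearest same-strand peak lay 192705 nt outside. SNRPB also hosts the small nucleolar RNA gene SNORD119 in the RefSeq annotation of GRCh38; whether a peak touches it was not analysed here, because no annotation of hg19 was used.

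HNRNPU was the other gene with PDS peaks alone. Its window spans 245013600 to 245027900 of chromosome 1, minus strand, and all 3 PDS peaks fell within 404 nt near its middle. From 5′ to 3′ they lay at 245021313 to 245021370, 245021017 to 245021019 and 245020967 to 245021016, and the last pair abutted. Their log2 folds were 3.10, 3.64 and 3.29, so none reached 4. In the RefSeq annotation of GRCh38 the gene overlaps the small nucleolar RNA gene SNORA100 and another protein-coding gene, and whether a peak touches either was not analysed here.

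The HNRNPU peaks combined modest enrichment with very small p. Their −log10 p values were 52.3, 57.0 and 59.8, at percentiles 91.8 to 94.2 of the PDS list, while by log2 fold they ranked at percentiles 10.0 to 53.0. Of the 1259 PDS peaks with a log2 fold in the same range, the median −log10 p was 12.7, and 32 of them (2.54%), the HNRNPU peaks included, reached the lowest HNRNPU value. The number of reads under a peak, on which −log10 p also depends, is not in the lists. Of the 37 PDS members, 4 had a −log10 p of at least 50, namely these 3 and the strongest SNRPB peak, beside 9.37% of all PDS peaks. Of the 15 Ctrl members, 0 did, beside 3.17% of all Ctrl peaks. The plot of enrichment against p shows the 3 HNRNPU peaks and the strongest SNRPB peak above the other members in −log10 p; the other two SNRPB peaks lie among the rest.

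**Figure D2:**
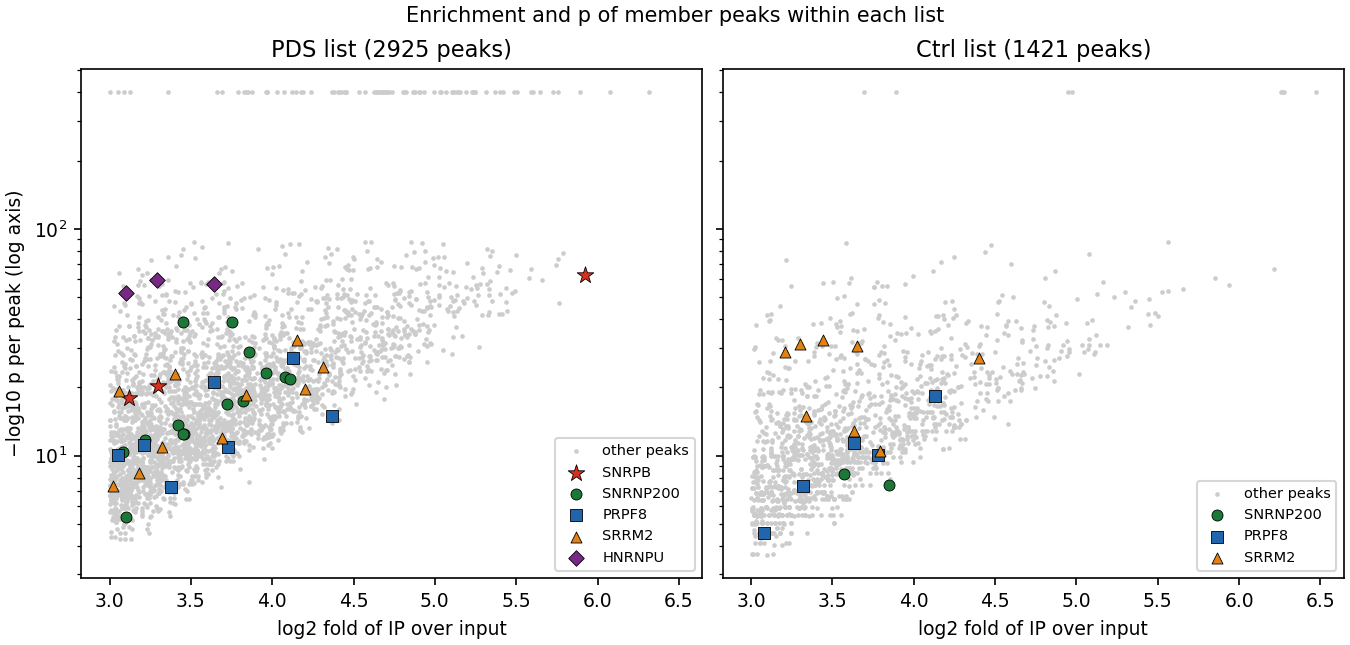
Log2 fold of IP over input (x axis) against −log10 p on a log axis (y axis) for every peak of the PDS list (left) and the Ctrl list (right), with member peaks coloured by gene and the others in grey. The 3 HNRNPU peaks lie between 52.3 and 59.8 on the y axis at log2 folds of 3.10 to 3.64, and the strongest SNRPB peak lies at 5.92; the row of points at 400 is a stand-in value of the files and holds no member.

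SNRNP200 held the most PDS peaks of the 6 genes. Its window spans 96940000 to 96971400 of chromosome 2, minus strand. Of its 14 PDS peaks, 10 fell in a stretch of 5010 nt from 96962379 to 96967388 in the 5′ part, 1 lay at 96950940 to 96951008, and the remaining 3 abutted each other at 96942901 to 96942966 near the 3′ edge. The 2 Ctrl peaks lay elsewhere, in the middle part, where the nearest PDS peak was 1152 nt from one and 1417 nt from the other.

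The SNRNP200 peaks of the PDS list were of middling enrichment. Their log2 folds ran from 3.08 to 4.11 with a median of 3.59, and 2 of the 14 reached 4. Both of these were very narrow pieces of abutting runs, 2 nt wide at 96966736 to 96966737 (log2 fold 4.08) and 3 nt wide at 96965163 to 96965165 (log2 fold 4.11). The 2 Ctrl peaks had log2 folds of 3.85 at 96952426 to 96952499 and 3.57 at 96952161 to 96952222, with −log10 p values of 7.40 and 8.28.

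Abutting pieces made up much of the SNRNP200 count. In the PDS list 9 of the 14 peaks touched another, and merging left 8 regions, against 2 regions in the Ctrl list. In the longest run, 4 pieces over 99 nt from 96965067 to 96965165, log2 fold went down from 5′ to 3′ (4.11, 3.86, 3.75 and 3.45) while −log10 p went up (21.9, 28.8, 38.8 and 39.0). The run near the 3′ edge showed the opposite slope in fold, with 3.22, 3.42 and 3.45 from 5′ to 3′.

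PRPF8 had 7 PDS and 5 Ctrl peaks, and none overlapped a peak of the other list, beside 30.6% of all PDS peaks and 51.5% of all Ctrl peaks that did. Its window spans 1553900 to 1588200 of chromosome 17, minus strand. The 7 PDS peaks fell into a 5′ set of 4 and a 3′ set of 3, with 0 in the middle part of the window. The 5 Ctrl peaks fell into 2 in the 5′ part and 3 in the 3′ part, again with 0 in the middle. The Ctrl peaks with midpoints at 66.9% and 69.5% of the window lay just past the start of the 3′ part. The empty middle of the Ctrl list therefore depends on that cut.

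Both lists occupied the same parts of PRPF8 at different positions. In the 5′ part, the PDS peak at 1582056 to 1582151 (log2 fold 4.13, −log10 p 27.1) was the nearest to the Ctrl pair at 1582907 to 1582989 and 1583006 to 1583064 (log2 folds 3.63 and 3.08), and 755 nt separated it from the first of these. The most enriched PDS peak of the gene lay at 1579288 to 1579348 (log2 fold 4.37, −log10 p 15.0), 3558 nt from the nearest Ctrl peak. The most enriched Ctrl peak lay close to the 3′ edge at 1554960 to 1555053 (log2 fold 4.13, −log10 p 18.3), 2151 nt from the nearest PDS peak. Median log2 fold was 3.64 over the 7 PDS peaks and 3.63 over the 5 Ctrl peaks, and the ranges overlapped, 3.05 to 4.37 in the PDS list and 3.08 to 4.13 in the Ctrl list.

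SRRM2 had the most Ctrl peaks of the 6 genes and was the sole gene with sites common to both lists. Its window spans 2802300 to 2821500 of chromosome 16, plus strand. Both lists left its 5′ part empty, and 7 of 10 PDS peaks and 7 of 8 Ctrl peaks lay in the 3′ part. After merging within 50 nt, 6 PDS and 7 Ctrl regions were left, which turned the order of the lists in this gene. Median log2 fold was 3.55 over the PDS peaks and 3.54 over the Ctrl peaks.

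A pair of sites in SRRM2 met across the lists. At the first, the PDS peak at 2815990 to 2816010 (log2 fold 3.06, −log10 p 19.2) shared 11 nt with the Ctrl peak at 2816000 to 2816069 (log2 fold 3.21, −log10 p 28.7). At the second, the PDS peak at 2820928 to 2820956 (log2 fold 3.69, −log10 p 12.0) lay wholly inside the Ctrl peak at 2820918 to 2820981 (log2 fold 4.40, −log10 p 27.0). The deposited log2 fold was lower in the PDS list at both, by -0.15 and -0.71 as PDS minus Ctrl. There is no replicate error to set these differences against. The PDS and Ctrl peaks were 21 and 70 nt wide at the first site and 29 and 64 nt wide at the second. The folds were therefore not taken over the same stretch.

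The most enriched SRRM2 stretch of the PDS list began 206 nt downstream of that second Ctrl peak. It was a run of 4 abutting PDS peaks over 132 nt, from 2821188 to 2821319, next to the 3′ edge of the window, with log2 folds of 3.40, 4.31, 4.15 and 4.20 from 5′ to 3′. The Ctrl list held no peak there. Conversely, an abutting pair of Ctrl peaks at 2819175 to 2819233 (log2 folds 3.30 and 3.65, −log10 p 31.1 and 30.4) had its nearest PDS peak 1694 nt away. In the Ctrl list the SRRM2 peaks had high −log10 p for their fold, with a median of 27.9 at percentile 86.1, beside a median fold at percentile 51.4; in the PDS list the median −log10 p of SRRM2 peaks was 18.9, at percentile 53.2.

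SF3B1 had no peak in either list over a window of 43301 nt (chromosome 2, 198256600 to 198299900, minus strand), the longest of the 6. The nearest same-strand peaks of both lists lay 53166 nt outside. For the other windows, the closest same-strand peak of either list lay 65731 nt or more from an edge. Next to SRRM2 it lay 18789443 nt away in the PDS list and 232356 nt away in the Ctrl list, where it was a single peak upstream. Downstream of the window, both lists held 0 plus-strand peaks over those 18789443 nt. On the minus strand, that stretch held 16 PDS and 7 Ctrl peaks. There were 0 peaks on the opposite strand inside any of the 6 windows. Widening the windows by 1000 nt at both ends added no peak.

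Enrichment of the members was set beside that of the lists. Median log2 fold was 3.46 over the 37 PDS members (quartiles 3.22 and 3.86) and 3.59 over the rest of the PDS list (3.26 and 4.06). In the Ctrl list it was 3.63 over the 15 members (3.33 and 3.79) and 3.52 over the rest (3.24 and 3.94). A log2 fold of at least 4 was reached by 8 of 37 PDS members, beside 27.6% of all PDS peaks, and by 2 of 15 Ctrl members, beside 22.0% of all Ctrl peaks. The members' shares were 21.6% (exact Clopper-Pearson 95% binomial interval 9.83 to 38.2%) and 13.3% (1.66 to 40.5%). These intervals cover counting error only and treat peaks as independent, which abutting pieces are not. The genes were chosen in part by log2 fold, so these shares test nothing. Apart from the SNRPB peak at 5.92, no member in either list exceeded 4.40.

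**Figure D3:**
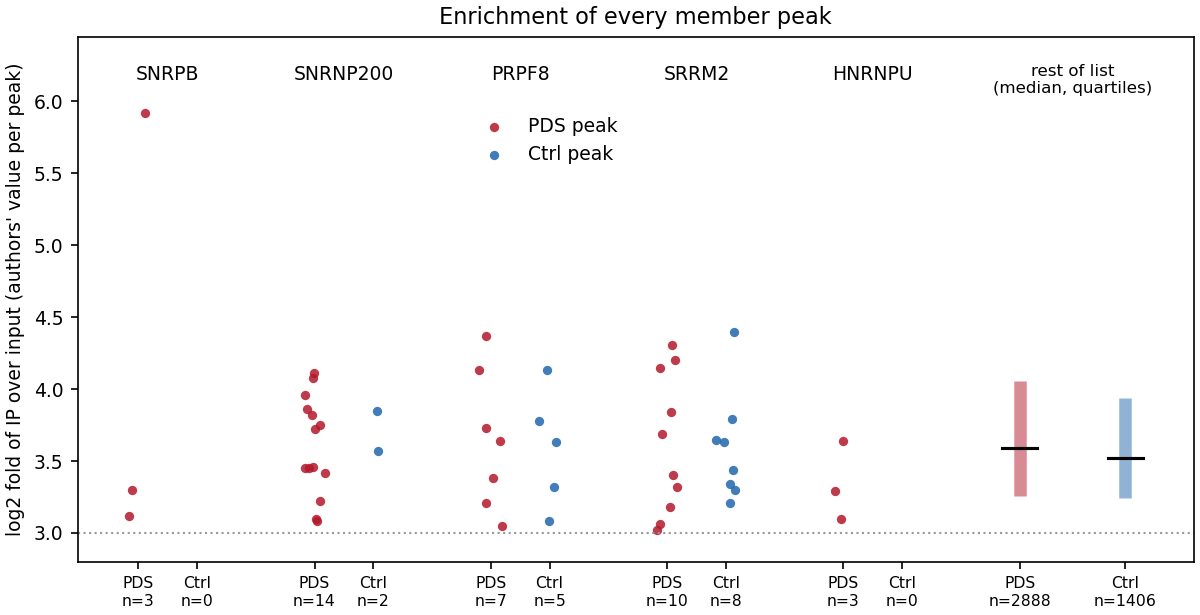
Log2 fold of IP over input of every member peak by gene (y axis; the dotted line marks 3), with the PDS list left of the Ctrl list and n the number of peaks. On the right, black lines and bars give the median and quartiles of the rest of each list; the SNRPB peak at 5.92 stands alone, and the other members lie between 3.02 and 4.40.

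Member peaks of the PDS list were narrow. Their median width was 39.0 nt (quartiles 21.0 and 58.0), against 63.0 nt in the rest of that list (35.0 and 94.0). In the Ctrl list the medians were 62.0 nt for members and 74.0 nt for the rest. Abutting peaks numbered 17 of 37 PDS members, 45.9%, beside 40.5% of all PDS peaks, and 2 of 15 Ctrl members, 13.3%, beside 20.3% of all Ctrl peaks. SNRNP200 and SRRM2 supplied 15 of the 17, while the PRPF8 and SNRPB peaks of the PDS list stood singly with median widths of 77.0 and 92.0 nt.

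Overlap between the lists was low in these genes. Of the 37 PDS members, 2 overlapped a Ctrl peak by at least 1 nt, a share of 5.41% (exact 95% interval 0.661 to 18.2%), beside 30.6% of all PDS peaks. Of the 15 Ctrl members, 2 overlapped a PDS peak, a share of 13.3% (1.66 to 40.5%), beside 51.5% of all Ctrl peaks. Both pairs lay in SRRM2, so without that gene the shares were 0 of 27 and 0 of 7. The PDS peaks of SNRPB and HNRNPU had no Ctrl peak in their windows to overlap. PDS members were also narrower than the rest of that list (median 39.0 against 63.0 nt), and what width does to the overlap was not tested. The intervals treat peaks as independent, which neighbouring pieces of a run are not, and no test was made, since the choice of genes drew on loci with peaks in the PDS list alone.

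**Figure D4:**
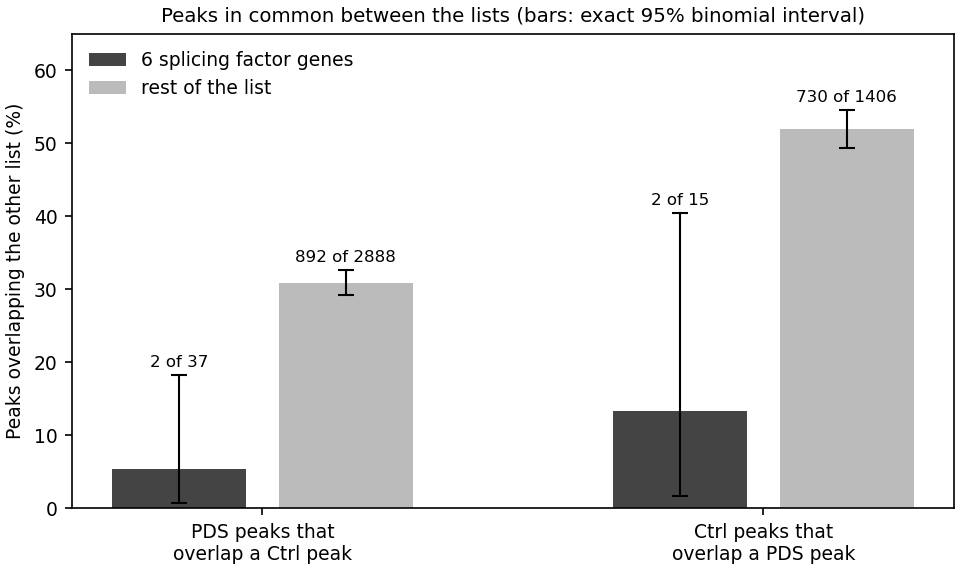
Percentage of peaks that overlap a peak of the other list (y axis) for the PDS list (left) and the Ctrl list (right), in the 6 splicing factor genes (dark) and the rest of each list (light), with exact 95% binomial intervals for counting error. Members stand at 5.41% and 13.3%, and the rest of the lists at 30.9% and 51.9%.

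The gap to the other list was taken for peaks without an overlap, pooled over genes. Among Ctrl members without an overlap, all 13 had a PDS peak within 20000 nt, at a median gap of 1417 nt (57 to 3615 nt). For the rest of the Ctrl list, 412 of 676 such peaks had one, at a median gap of 638 nt. The 13 members lay in SNRNP200, PRPF8 and SRRM2, with windows of 19201 to 34301 nt that held 14, 7 and 10 PDS peaks. Since genes were chosen by their peak counts, a PDS peak within 20000 nt was nearly fixed by that choice. The shares are therefore not a like comparison. Of the PDS members without an overlap, 29 of 35 had a Ctrl peak within 20000 nt, at a median of 3558 nt, and the other 6 were those of SNRPB and HNRNPU. In the rest of the PDS list that median was 1302 nt, over 1101 of 1996 peaks. SNRNP200 supplied 14 of the 29 member peaks, at gaps of 1152 to 14832 nt, and 9 of its 14 were abutting pieces counted singly. The member median without SNRNP200 was not computed.

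Read over whole loci, the genes fell into several classes. Same-strand peaks of both lists up to 20000 nt apart were joined, which put each of the 5 bound genes into 1 locus of its own. SNRNP200, PRPF8 and SRRM2 were among 169 loci with at least 2 peaks in both lists. In 11 of these (6.51%) no PDS peak overlapped a Ctrl peak, and SNRNP200 and PRPF8 were among the 11 while SRRM2 was not. All 5 bound genes were among 267 loci with at least 3 PDS peaks. Of these loci 74 (27.7%) held no Ctrl peak, SNRPB and HNRNPU among them. The genes were chosen from these lists, in part by loci with peaks in the PDS list alone. Their classes therefore describe that choice and test nothing.

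Positions within the windows were also counted, pooled over genes that gave unequal numbers of peaks to each list. Over the 5 bound genes, 15 PDS peaks lay in the 5′ part of their window, 8 in the middle and 14 in the 3′ part. In the Ctrl list these numbers were 2, 3 and 10. SNRNP200 alone gave 10 of the 15 PDS peaks of the 5′ part, and SRRM2 gave 7 of the 10 Ctrl peaks of the 3′ part. Within PRPF8 the counts from 5′ to 3′ were 4, 0 and 3 (PDS) beside 2, 0 and 3 (Ctrl). Within SRRM2 they were 0, 3 and 7 beside 0, 1 and 7. SNRNP200 had 10, 1 and 3 PDS peaks, some of them abutting pieces, beside 0, 2 and 0 Ctrl peaks. How far the pooled difference comes from which genes supplied the peaks was not tested. The windows contain introns, so these parts are not parts of the mature mRNA, and exons, introns and untranslated regions were not assigned.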

How the data were processed

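G3BP1 seCLIP was made in HEK293T cells, with 2 IP and 2 input libraries each for PDS-treated and untreated cells. The submitters' processing notes name UMI-tools, cutadapt and STAR and the build hg19. For the peak caller and for how replicates were joined, the entry is: not given in the sources used here. The authors deposited 1 list of peaks per condition, with 6 columns and no header. The deposited log2 value was read as fold of IP over input and the other as −log10 p of the peak, both inferred from the values and the usual eCLIP format; 400 was taken as a stand-in, since the next highest values were 87.9 (PDS) and 87.3 (Ctrl). Starts were counted from 0 in the files and are printed from 1.

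Peaks wholly inside the 6 windows on the gene's strand were members, and all 6 genes are named; single peaks are described by rank in their gene, overlap or −log10 p, and further ones were picked after their values were seen. Overlap meant at least 1 nt on the same strand (scipy 1.17.1, pandas 2.3.3 and numpy 2.4.6 under python 3.11.15; figures with matplotlib 3.10.9), and the overlap search was checked on planted peaks. Members, windows and measures were chosen with earlier results of these data known. Depth per library was not analysed here. A count of further splicing factor genes and a search for quadruplex patterns in peak sequences were planned and not run, because they need an hg19 annotation and genome; the RefSeq table of GRCh38 served for gene names alone. Alternatives were a stricter threshold, merged regions, other definitions of overlap, omission of short peaks, a shortened PDS list, wider windows and omission of each gene.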

Additional observations from a re-analysis of the deposited data

How the results depend on the processing

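The results were recomputed under alternative settings, which gave 114 values, of which 85 were close to the reported value and 29 were not. Some of the 85 could not change. Examples are the values with SF3B1 left out, which had no peak, and the Ctrl counts of 0 in SNRPB and HNRNPU. The number of close values is therefore not a measure of stability. Close meant within 1.5 times for counts and ratios and within the exact 95% interval for shares and medians. Gaps of 10000 or 50000 nt for loci were chosen after seeing the data and gave 9 of 161 and 12 of 172 loci without an overlapping pair. With a log2 fold of at least 4 and −log10 p of at least 5, 8 PDS and 2 Ctrl members remained, a ratio of 4.0. The whole lists held 808 PDS and 313 Ctrl peaks with a log2 fold of at least 4, whatever their p. Overlap of the remaining members was 0% in both lists, and the share over all peaks at this threshold was not computed. PDS peaks then numbered 1 in SNRPB, 2 in SNRNP200, 2 in PRPF8, 3 in SRRM2 and 0 in HNRNPU. Ctrl peaks numbered 0 in SNRNP200, 1 in PRPF8 and 1 in SRRM2. With the PDS list cut to 1421 peaks, 18 PDS members and a ratio of 1.20 remained, with 1 in SNRPB, 7 in SNRNP200, 4 in PRPF8, 5 in SRRM2 and 1 in HNRNPU. Merging within 50 nt left 8 PDS regions in SNRNP200 and 6 in SRRM2, fewer than the 7 Ctrl regions of SRRM2, which turned the order of the lists there. Overlap of members was 0% in both lists with reciprocal overlap of 50%. The share over all peaks under that rule was not computed, so this 0% has no whole-list value beside it. Without SRRM2, overlap by at least 1 nt was also 0%, beside 30.6% of all PDS peaks and 51.5% of all Ctrl peaks. Leaving out SNRNP200 gave 23 PDS members; leaving out SRRM2 gave 7 Ctrl members and a ratio of 3.86. Reciprocal overlap of 50% and the other gaps for loci keep every peak and change only a definition. The other alternatives named here leave fewer peaks or regions by construction. Further causes were not tested. No paired analysis was possible because each list used here gives 1 value per peak for both replicates, and for that reason no replicate could be left out. Depth was not analysed, which limits what an absent peak shows.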
